A study of Mus musculus with 3 samples.

Results

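The genes described are the 35 genes that encode the constitutive 26S proteasome, the protease that degrades most ubiquitin-tagged proteins of the cytosol and nucleus. They were chosen by symbol, as Psma1 to Psma7, Psmb1 to Psmb7, Psmc1 to Psmc6, Psmd1 to Psmd14 and Adrm1, from the 22238 genes listed in all 3 libraries, and the rule uses no measured value. RNA-Seq was done on 3 populations sorted from C57BL/6J mice labelled WT (wild type), 10 to 12 weeks old that had received 200 µg of myelin oligodendrocyte glycoprotein (MOG) peptide in complete Freund's adjuvant, with 250 ng of pertussis toxin given 2 and 24 hours later. This immunization induces experimental autoimmune encephalomyelitis (EAE), a model of multiple sclerosis, and cells were taken at days 14 to 15. Bone marrow monocytes (Ly6C high, Ly6G and CD11c negative) were pooled from 13 mice in 2 experiments. Spinal cord monocytes (CD64 positive, Ly6C high, Ly6G negative) and spinal cord monocyte-derived antigen-presenting cells (APCs; CD64 positive, Ly6C low or negative, Ly6G negative) were each pooled from 18 mice in 3 experiments. Before sorting, spinal cords were digested with collagenase and DNase and spun on Percoll, whereas bone marrow was flushed and enriched with a monocyte kit. Between bone marrow and spinal cord libraries, tissue and preparation cannot be told apart. All 3 populations came from immunized mice, so none is an unimmunized control, and one GEO label of the APC sample names the bone marrow as its source while its title and tissue label name the spinal cord. The bone marrow library held 33280643 estimated reads, the spinal cord monocyte library 27283795 and the APC library 28209589, and every set of 3 values below follows this order.

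The proteasome has 2 parts that are made and assembled separately. The core particle is a barrel of alpha rings (Psma genes), which gate the entrance, around beta rings (Psmb genes), of which Psmb5, Psmb6 and Psmb7 carry the active sites. The regulatory particle caps the barrel. Its base holds the ATPases that unfold substrates (Psmc genes), with scaffold subunits and ubiquitin receptors, and its lid removes the ubiquitin. In cells exposed to interferon, the 3 active subunits can be replaced by Psmb8, Psmb9 and Psmb10, which form the immunoproteasome. Not every symbol in the set encodes a subunit of the finished particle, because Psmd5, Psmd9 and Psmd10 are chaperones that help to assemble the base, and the small lid subunit Sem1 has another symbol and is not a member.

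All 35 genes were transcribed in each population, and none was called changed by 2-fold in either comparison. Levels are given as TPM, the share of transcripts after correction for length, rescaled to the same sum over the 22238 genes. A gene was taken as active when either library of a comparison had more than 3 TPM, and all 35 were. Fold changes were computed from reads, with a 98% interval (given in parentheses below) that covers counting error only, and a gene was called where the whole interval lay beyond 2-fold. PCR copies are not independent molecules, so these intervals may be too narrow. With 1 library per population, no difference has a replicate check and no test of the populations was possible. In the first comparison, of spinal cord with bone marrow monocytes, 0 members were called higher and 0 lower, against 13.6% and 11% of 10072 active genes. In the second, of APCs with spinal cord monocytes, the members again gave 0 and 0, against 1.94% and 1.66% of 9734 active genes, a background at which a set of this size gives few calls in any case. When the interval had only to pass 1.5-fold, 1 member was called lower in each comparison. In the first it was the chaperone gene Psmd5, with 18.2% of active genes called higher and 21.2% lower. In the second it was the core subunit gene Psmb4, with 4.35% called higher and 5.59% lower.

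The summed level of the 35 genes was 5575, 4530 and 4069 TPM, highest in the bone marrow and lowest in APCs, whereas TPM as deposited, not rescaled, summed to 4735, 3864 and 4068, with APCs above spinal cord monocytes. The median gene had 148, 97.0 and 88.2 TPM. As a share of reads, the genes held 0.386% (95% Wilson interval 0.384 to 0.389), 0.330% (0.328 to 0.333) and 0.318% (0.316 to 0.320). These bulk values cannot tell less RNA per cell from a change in which cells were sorted. The TPM of 29 of the 35 genes was lower in the first comparison, as was that of 67.5% of active genes. In the second it was lower for 24 of them and for 58.6% of active genes.

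Direction depended on the scale in the first comparison. On scaled reads the median log2 fold change of the members was -0.02, with quartiles at -0.24 and 0.13. On TPM it was -0.30. All active genes shifted the same way, with a median of -0.17 on scaled reads and -0.37 on TPM, so that relative to them the members stood 0.15 higher on reads and 0.07 higher on TPM. Scaling by total reads would move every value of this comparison by -0.16. The spread of the members was narrower than that of the active genes as a whole. The SD of their log2 fold changes was 0.34, against 1.82 for all active genes and 1.57 for the 5529 active genes whose mean TPM lay within the range of the members. The lowest member stood at -0.96 and the highest at 0.55, a range that held 62.2% of active genes. In the second comparison the median was -0.01 (quartiles -0.22 and 0.04) beside -0.03 for all active genes. The members' SD there was 0.28, against 0.66 for all active genes and 0.51 for those in the same TPM range.

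**Figure D1:**
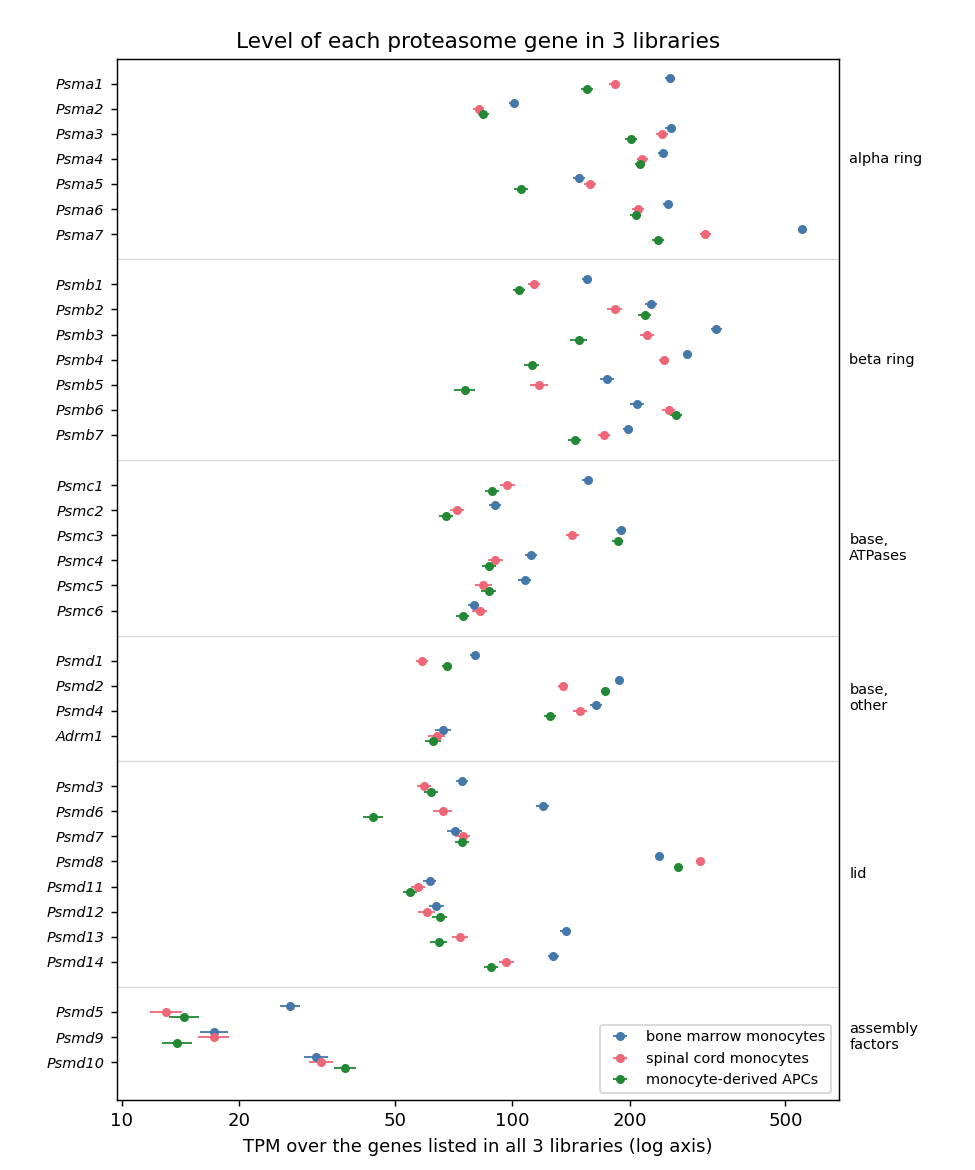
Each point is the TPM of 1 gene in 1 library, on a log axis, with its 95% Wilson interval, which covers counting error only; genes are grouped by their place in the complex. The chaperone genes Psmd5, Psmd9 and Psmd10 lie between 12.97 and 37.4 TPM, to the left of the 32 other genes.

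The alpha ring genes had a median of 250.5, 210.1 and 201 TPM, against 148, 97.0 and 88.2 TPM for all 35, with Psma2 below the latter in each library. Psma7 led the set in both monocyte libraries, at 551 and 312 TPM, and had 236 TPM in APCs. The first comparison gave a log2 fold change of -0.54 (-0.61 to -0.47) and the second -0.38 (-0.46 to -0.30). Psma7 was thus lower at each step by more than counting error, though by less than 2-fold. Psma5 (ENSMUSG00000068749.9, chromosome 3, 108256926 to 108279974, plus strand) had 148, 158 and 105 TPM. It gave 0.38 (0.30 to 0.47) between the monocyte libraries and -0.59 (-0.68 to -0.49) in APCs, and on TPM the first of these was 0.09. The other 5 alpha genes stayed within a narrower band, from -0.19 for Psma1 to 0.18 for Psma3 in the first comparison. Psma1 had 253, 183 and 156 TPM, and Psma3 had 254, 242 and 201 TPM. Psma4 (243, 215 and 212 TPM) and Psma6 (250.5, 210.1 and 207 TPM) were close in the 2 spinal cord libraries, with log2 fold changes of 0.03 and -0.01 whose intervals held 0. Psma2 was the least abundant alpha gene at 101, 82.0 and 84.2 TPM.

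The beta ring held the member with the largest difference between APCs and spinal cord monocytes. Psmb4 (ENSMUSG00000005779.12, chromosome 3, 94884093 to 94886961 of GRCm38, minus strand), a structural beta subunit, had 280, 244 and 112 TPM, from 5343, 3974 and 2178 reads. The 2 monocyte libraries were alike, at 0.03 (-0.04 to 0.10), and the APC library stood apart at -1.01 (-1.10 to -0.93). Only 2.90% of active genes had a lower fold change in that comparison. The point estimate was 0.495-fold, but one end of the interval, at -0.93, lay short of 2-fold, so Psmb4 was not called. On TPM the log2 difference was -1.12. The APC values came from a smaller transcript set, with an effective length of 933 bases for Psmb4 against 840 in spinal cord monocytes, and the population and the transcript set cannot be told apart.

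The active-site gene Psmb5 (ENSMUSG00000022193.7, chromosome 14, 54614119 to 54618022, minus strand), which carries the chymotrypsin-like activity, had 174, 117 and 75.5 TPM. It was lower at each step, by -0.30 (-0.42 to -0.19) and -0.60 (-0.74 to -0.46). Psmb6 (ENSMUSG00000018286.6, chromosome 11, 70525367 to 70527858, plus strand), the caspase-like subunit, went the other way, with 208, 252 and 262 TPM. Its log2 fold change of 0.55 (0.46 to 0.65), or 1.46-fold, was the highest of the 35 in the first comparison, and on TPM it was 0.27. In APCs it stood at 0.09 (0.00 to 0.18). Psmb7 (ENSMUSG00000026750.6, chromosome 2, 38588036 to 38644087, minus strand), the trypsin-like subunit, had 198, 171 and 144 TPM, with 0.08 (0.00 to 0.17) and -0.25 (-0.34 to -0.16). Psmb6 was the most abundant of the 3 active-site genes in every library and Psmb5 the least, and they were furthest apart in APCs. Psmb3 had 332, 221 and 148 TPM and resembled Psmb5, at -0.30 and -0.58. Psmb2 (ENSMUSG00000028837.8, chromosome 4, 126677630 to 126709714, plus strand) had 227, 183 and 218 TPM and stood at 0.28 (0.18 to 0.38) in APCs. Psmb1 had 155, 114 and 104 TPM, with values of -0.15 and -0.14.

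The bases before the start of Psmb4, Psmb5 and Psmb6 are shown because these genes, 1 structural and 2 active-site, differed in their values, and those of the lid gene Psmd6 because it was low at both steps. Each is 250 bases long on GRCm38.p6, from RefSeq, written in the direction of the gene and ending at the base before the start. The windows are chr3:94886959-94887208 (minus strand), chr14:54617996-54618245 (minus), chr11:70525107-70525356 (plus) and chr14:14120946-14121195 (minus). Capitals mark matches to TGACNNNGC, the antioxidant response element through which NRF1 and NRF2 act, or to CCGGAAG, a site of ETS factors, on either strand.
Psmb4: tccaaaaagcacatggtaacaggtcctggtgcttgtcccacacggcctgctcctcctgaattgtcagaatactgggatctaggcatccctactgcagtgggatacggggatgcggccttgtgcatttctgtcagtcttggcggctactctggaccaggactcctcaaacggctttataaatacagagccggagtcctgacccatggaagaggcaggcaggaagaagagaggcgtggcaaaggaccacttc
Psmb5: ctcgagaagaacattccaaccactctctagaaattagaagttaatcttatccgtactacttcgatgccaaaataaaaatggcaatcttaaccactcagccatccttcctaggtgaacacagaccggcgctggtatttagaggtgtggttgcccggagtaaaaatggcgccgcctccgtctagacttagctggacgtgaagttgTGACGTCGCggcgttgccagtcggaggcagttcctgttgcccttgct
Psmb6: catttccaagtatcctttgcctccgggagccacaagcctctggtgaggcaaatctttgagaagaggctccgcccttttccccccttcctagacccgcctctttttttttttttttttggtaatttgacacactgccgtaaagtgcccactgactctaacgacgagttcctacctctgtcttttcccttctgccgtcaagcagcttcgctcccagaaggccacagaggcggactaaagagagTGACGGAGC
Psmd6: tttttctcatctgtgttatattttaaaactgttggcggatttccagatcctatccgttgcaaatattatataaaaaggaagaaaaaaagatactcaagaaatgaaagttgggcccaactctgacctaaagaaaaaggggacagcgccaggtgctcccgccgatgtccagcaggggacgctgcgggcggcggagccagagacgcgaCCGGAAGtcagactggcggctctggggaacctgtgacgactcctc
TGACNNNGC matched 47 bases before the start of Psmb5 and 9 bases before that of Psmb6, whereas these letters are not in the window of Psmb4. CCGGAAG matched 45 bases before the start of Psmd6.

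Of the 35 genes, 29 had a RefSeq window of 300 bases, 250 before the start and 50 after it, and Psmb1, Psmb2, Psmb7, Psmc3, Psmd3 and Psmd7 had none in the table. TGACNNNGC was found in 6 of the 29 (20.7%), namely Psmb5, Psmb6, Psmc6, Psmd9, Psmd12 and Adrm1, against 14.0% of all 27025 genes with a window and 17.1% of 8174 active genes. CCGGAAG was found in 11 (37.9%), against 9.93% of all genes and 22.5% of active genes. Those 11 were Psma6, Adrm1 and 9 Psmc and Psmd genes, so that 10 of 15 regulatory particle genes and 1 of 11 core particle genes held it. CCAAT, the NF-Y box, was in 12 (41.4%, against 41.1% and 43.3%), and GGGCGG, an SP1 site, in 19 (65.5%, against 38.2% and 68.9%). The shares of members with TGACNNNGC, CCAAT or GGGCGG were each close to those of active genes. Both strands were searched, and a match is a description of the letters, not evidence that a factor binds.

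The 6 ATPase genes of the base had a median log2 fold change of -0.12 between the monocyte libraries, beside -0.17 for all active genes, and of 0.11 in APCs, beside -0.03. On TPM the ATPase medians were -0.33 and -0.07, so the sign in APCs depended on the scale. Psmc1 had 156, 97.0 and 88.6 TPM, with -0.50 (-0.60 to -0.41) in the first comparison and 0.22 (0.12 to 0.32) in the second. Psmc3 (ENSMUSG00000002102.15, chromosome 2, 91054009 to 91066369, plus strand) had 189, 142 and 186 TPM, and its 0.28 (0.20 to 0.37) was the highest of the 35 in APCs, at 1.22-fold. Psmc2, Psmc4 and Psmc5 lay between 67.6 and 112 TPM in every library, and their intervals held 0 in the first comparison. Psmc6 had 79.5, 82.4 and 74.7 TPM. Effective lengths of 1847, 1263 and 1623 bases were assigned to it, so that the log2 fold change was -0.18 on reads and 0.05 on TPM in the first comparison, and 0.18 and -0.14 in the second. The sign for Psmc1 in APCs flipped in the same way, from 0.22 on reads to -0.13 on TPM.

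The other base genes encode the 2 large scaffold subunits (Psmd1 and Psmd2) and 2 ubiquitin receptors (Psmd4 and Adrm1). Psmd1 (ENSMUSG00000026229.17, chromosome 1, 86064387 to 86139151, plus strand) had 80.0, 58.8 and 68.0 TPM, at -0.18 (-0.26 to -0.11) and 0.24 (0.16 to 0.32). Psmd2 had 187, 135 and 173 TPM, and its value in APCs was -0.06 on reads and 0.36 on TPM, where the effective length fell from 1935 to 1485 bases. Of the receptors, Psmd4 had 164, 149 and 125 TPM, and Adrm1 66.5, 64.0 and 62.7 TPM. Adrm1 gave 0.32 (0.21 to 0.44) on reads in the first comparison and -0.05 on TPM.

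The lid had the widest spread between the monocyte libraries after the chaperones. Psmd13 (ENSMUSG00000025487.15, chromosome 7, 140881968 to 140898643, plus strand), a structural lid subunit, had 137, 73.5 and 64.8 TPM. It gave -0.67 (-0.77 to -0.57), or 0.629-fold, and -0.28 (-0.40 to -0.16) in APCs. Psmd6 (ENSMUSG00000021737.4, chromosome 14, 14112174 to 14120984, minus strand), another structural lid subunit, had 119, 66.4 and 44.0 TPM, with -0.67 (-0.78 to -0.55) and -0.43 (-0.57 to -0.29). Bone marrow monocytes had the highest level of both genes. Psmd8 (ENSMUSG00000030591.17, chromosome 7, 29174188 to 29180701, minus strand) was instead lowest in bone marrow monocytes, with 238 and 302 TPM in the monocyte libraries. It had 265 TPM in APCs, where it was the most abundant of the 35. It stood at 0.44 (0.38 to 0.51) in the first comparison and 0.35 on TPM. Psmd14, the deubiquitinase of the lid, had 127, 96.5 and 88.2 TPM, with -0.24 (-0.33 to -0.15) and 0.02 (-0.09 to 0.12). Psmd3, Psmd7, Psmd11 and Psmd12 lay between 54.6 and 74.5 TPM in all 3 libraries, and in APCs their intervals held 0. In the first comparison these 4 gave 0.01, 0.33, 0.09 and 0.17, and on TPM only Psmd7 stayed above 0, at 0.07.

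The 3 assembly chaperones were the least abundant members. Psmd5 (ENSMUSG00000026869.12, chromosome 2, 34849734 to 34874968, minus strand) had 27.0, 12.97 and 14.4 TPM, from 1161, 433 and 490 reads. Its -0.96 (-1.15 to -0.78), or 0.513-fold, was the lowest of the 35 in the first comparison, and on TPM the difference was -1.06. The 2 spinal cord libraries gave 0.03 (-0.19 to 0.25). Psmd9 had 17.2, 17.2 and 13.9 TPM, and Psmd10 had 31.4, 32.4 and 37.4 TPM, with 0.28 and 0.34 on reads in the first comparison and 0.00 and 0.04 on TPM.

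**Figure D2:**
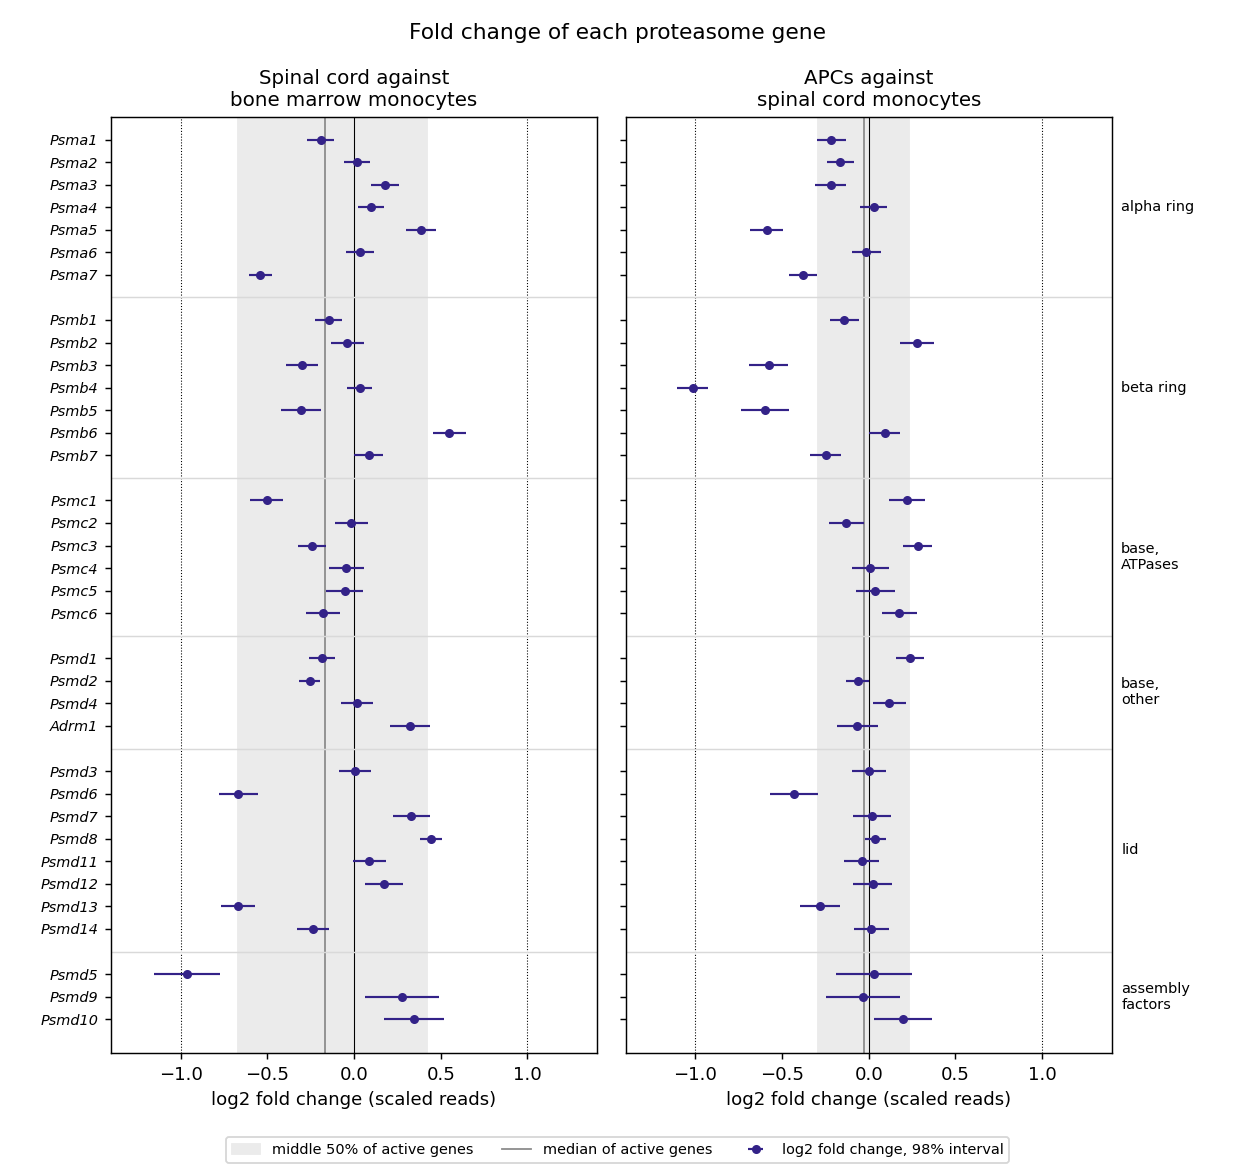
Points are log2 fold changes of scaled reads with 98% intervals that cover counting error only, for the monocyte libraries (left, spinal cord against bone marrow) and for APCs against spinal cord monocytes (right); dotted lines mark 2-fold, the grey band runs between the quartiles of all active genes and the grey line is their median. Psmd5 at -0.96 and Psmb4 at -1.01 lie nearest to the lower 2-fold lines, and most beta and alpha genes lie left of 0 in the right panel.

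The 2 particles had different medians in the second comparison. In APCs the 14 core particle genes had a median of -0.22, and 10 of the 14 had an interval below 0 and 2 above it (Psmb2 and Psmb6), beside 35.7% and 29.3% of active genes. An interval narrows with more reads. Of 5526 other active genes in the TPM range of the members, 2406 had an interval below 0 and 1488 above it, with a median of -0.07. The 18 regulatory particle genes had a median of 0.02, with 3 intervals below 0 (Psmc2, Psmd6 and Psmd13), 5 above 0 (Psmc1, Psmc3, Psmc6, Psmd1 and Psmd4) and 10 that held 0. On TPM, Psmc1, Psmc6 and Psmd4 were lower in APCs, at -0.13, -0.14 and -0.25, and of the 10 core genes Psma2 was higher, at 0.04. The medians were 0.23 apart on reads and 0.18 apart on TPM, in the same direction. Psmb4, Psmb5, Psma5 and Psmb3 made the low end. Between the monocyte libraries the medians were 0.03 and -0.05. Measured in TPM, the median level of the core genes was 2.15, 2.50 and 2.04 times that of the regulatory genes. Summed TPM was 3375, 2702 and 2265 for the core particle and 2124, 1765 and 1738 for the regulatory particle.

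The factors that build the core particle stand outside the set. Pomp, which drives maturation of the beta rings, was the most abundant at 440, 426 and 363 TPM, with 0.23 (0.16 to 0.30) and -0.32 (-0.39 to -0.24). Psmg1, Psmg2, Psmg3 and Psmg4, the chaperones of the alpha ring, had 17.3, 20.1, 21.9 and 62.6 TPM in bone marrow monocytes, and 0 of these 5 genes were called in either comparison, beside the 13.6% higher and 11% lower of the first and the 1.94% and 1.66% of the second, which give few calls among 5 genes. Their median in APCs was -0.32. Sem1 had 236, 153 and 125 TPM, at -0.32 in the first comparison and -0.31 in the second. The tissue-restricted core subunits were near absent, with Psma8, a testis subunit, at 1.21, 1.59 and 1.83 TPM and Psmb11, a subunit of the thymic cortex, at 0.102, 0.609 and 1.89 TPM. Neither reached 3 TPM in any library.

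Each active-site gene of the set has 1 immunoproteasome counterpart. In TPM, Psmb8 had 448, 746 and 615, Psmb9 had 106, 189 and 131, and Psmb10 had 182, 262 and 139. In the first comparison Psmb8 gave 1.04 (0.99 to 1.09), Psmb9 1.09 (0.995 to 1.18) and Psmb10 0.78 (0.70 to 0.86). On TPM they gave 0.73, 0.84 and 0.53. The point estimates of Psmb8 and Psmb9 on reads, 2.06-fold and 2.13-fold, passed 2-fold, but their whole intervals did not. None of these 3 was called at 2-fold, and all 3 were called higher at 1.5-fold in the first comparison, beside 18.2% of active genes. There the constitutive Psmb5, Psmb6 and Psmb7 stood at -0.30, 0.55 and 0.08. Psmb8 took 72.0%, 86.4% and 89.1% of the pair with Psmb5. For Psmb9 with Psmb6 the share was 33.6%, 42.9% and 33.3%, and for Psmb10 with Psmb7 it was 47.9%, 60.5% and 49.1%. Of the 3 pairs, the one with Psmb5 had its highest share in APCs, where Psmb8 stood at -0.26 and Psmb5 at -0.60 against spinal cord monocytes. Over the 3 pairs the share was 55.9%, 68.9% and 64.7%.

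**Figure D3:**
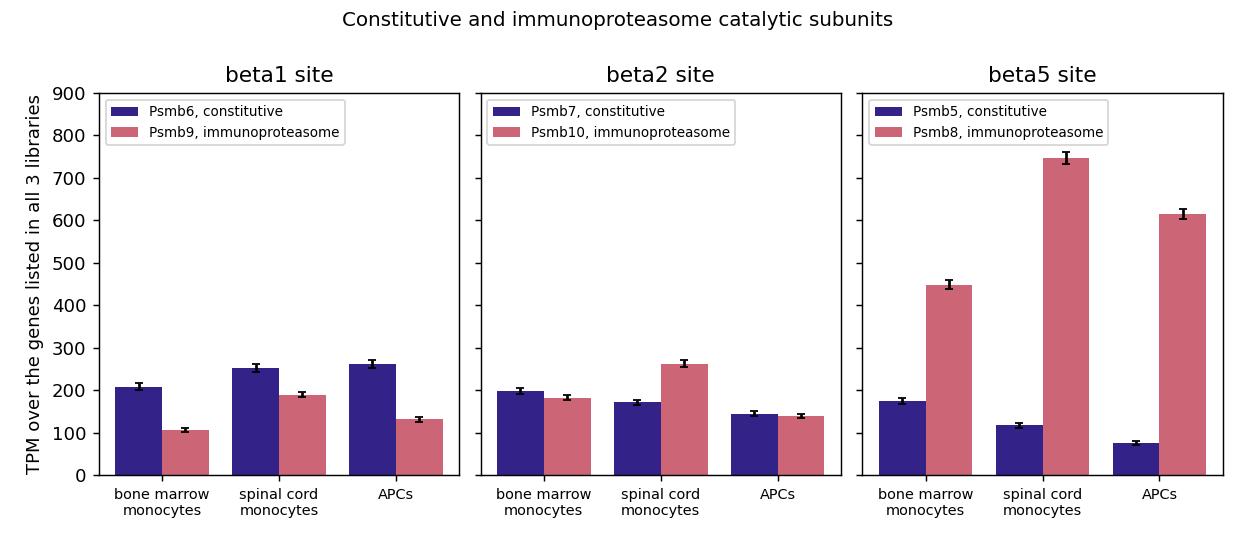
Bars are TPM from 0, with 95% Wilson intervals that cover counting error only, for the constitutive gene (dark) and the immunoproteasome gene (light) of each active site in the 3 libraries. Psmb8 exceeds Psmb5 in every library, Psmb6 exceeds Psmb9 in every library, and Psmb10 exceeds Psmb7 in spinal cord monocytes, at 262 against 171 TPM.

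Genes that act on or upstream of the proteasome were read against the same background, with 13.6% of active genes called higher and 11% lower in the first comparison. Of the 5 genes for activators and the inhibitor, 2 were called higher and 0 lower. Psme1 and Psme2, which form the interferon-inducible PA28 cap, were called higher in the first comparison, at 1.17 (1.11 to 1.23) and 1.41 (1.34 to 1.48). Psme1 had 322, 690 and 867 TPM, and Psme2 had 274, 598 and 360 TPM. Psme3, the nuclear PA28 subunit, Psme4 (PA200) and the inhibitor Psmf1 were not called at 2-fold, with -0.35, -0.85 and 0.10. At 1.5-fold, Psme4 was called lower there, beside 21.2% of active genes, and Psme2 was called lower in APCs (-0.65), beside 5.59%. The polyubiquitin gene Ubb had 1118, 1756 and 2038 TPM and gave 0.96 (0.94 to 0.99) in the first comparison, just inside 2-fold. It was called higher at 1.5-fold, beside 18.2% of active genes. Uba1 and Uba6, the enzymes that activate ubiquitin, gave -0.22 and -0.56, and the fusion gene Rps27a gave -0.10.

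Of 13 genes for substrate delivery and deubiquitination at the proteasome, 2 were called higher in the first comparison and 0 lower, a share close to the 13.6% of active genes called higher. Zfand2a, a stress-induced protein that binds the regulatory particle, rose from 10.9 to 134 TPM (log2 fold change 3.54, interval 3.39 to 3.71), and Zfand5, which stimulates degradation, rose from 67.6 to 220 TPM (1.66, 1.59 to 1.73). The list as a whole had a median of -0.21, and its lowest gene was Ddi2, the protease that activates NRF1, at -0.77. In APCs 0 of the 13 were called, beside 1.94% of active genes higher and 1.66% lower, a background at which few calls would arise among 13 genes. On reads, Zfand5 was lowest there at -0.91 and Ubqln4, a shuttle for ubiquitinated proteins, highest at 0.29. On TPM, Zfand5 gave -0.40, as its effective length fell from 1952 to 1409 bases. The lowest of the list on TPM was Uchl5 at -0.80, which gave 0.05 on reads. At 1.5-fold, Ddi2 was called lower in the first comparison, beside 21.2% of active genes, and Zfand5 in APCs, beside 5.59%.

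The transcription factors NRF1 and NRF2 control proteasome genes under stress, and 3 of the 9 genes in that list were called higher in the first comparison, beside 13.6% of active genes. Nfe2l2, which encodes NRF2, had 103, 373 and 357 TPM (2.06, 2.00 to 2.12). Maff and Mafk, small partners of these factors, gave 8.11 (7.57 to 8.73; 33 reads in the bone marrow library and 6783 in that of spinal cord monocytes) and 3.06 (2.94 to 3.18). Nfe2l1, which encodes NRF1, gave 0.79 (0.70 to 0.88) and was called at 1.5-fold only. Keap1, which holds NRF2 in check, stood at -0.63, and Ngly1 and Vcp, both needed to process NRF1, at -1.04 (-1.21 to -0.87) and -0.67, and none of these 3 was called at 2-fold, while Ngly1 and Vcp were called lower at 1.5-fold, beside 21.2% of active genes. Mafg gave 0.04. In APCs the repressor Bach1 was called lower, at -1.28 (-1.35 to -1.22), with 89.1, 89.1 and 36.7 TPM, beside 1.66% of active genes. Mafk (-0.92) and Maff (-0.68) were called lower there at 1.5-fold only, beside 5.59%. Beside these values, the 5 members with a TGACNNNGC match among the subunits (Psmb5, Psmb6, Psmc6, Psmd12 and Adrm1) stood at -0.30, 0.55, -0.18, 0.17 and 0.32 in the first comparison.

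Other large complexes that, like the proteasome, are built from fixed sets of subunits gave a comparison. The 10 genes of the COP9 signalosome, which is related to the lid, had medians of -0.08 and 0.06 in the 2 comparisons, and the 8 genes of the CCT chaperonin, which folds actin and tubulin, had -0.10 and 0.01. None of these 18 genes was called at 2-fold, beside 13.6% of active genes higher and 11% lower in the first comparison and 1.94% and 1.66% in the second. The SD of the log2 fold changes was 0.42 and 0.37 for the COP9 signalosome, 0.23 and 0.17 for CCT, and 0.34 and 0.28 for the proteasome. These SDs are on scaled reads, and on that scale the narrow spread was also seen in these 2 complexes. Their spread on TPM was not computed. In APCs the CCT gene Cct6a gave -0.35 on reads and -1.31 on TPM, where its effective length went from 675 to 1349 bases. The lowest COP9 gene in the first comparison was Cops3 at -0.78, and the highest was Cops8 at 0.53. At 1.5-fold, Cops3 was called lower there, and Cops9 was called lower in APCs (-0.82), beside 21.2% and 5.59% of active genes.

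**Figure D4:**
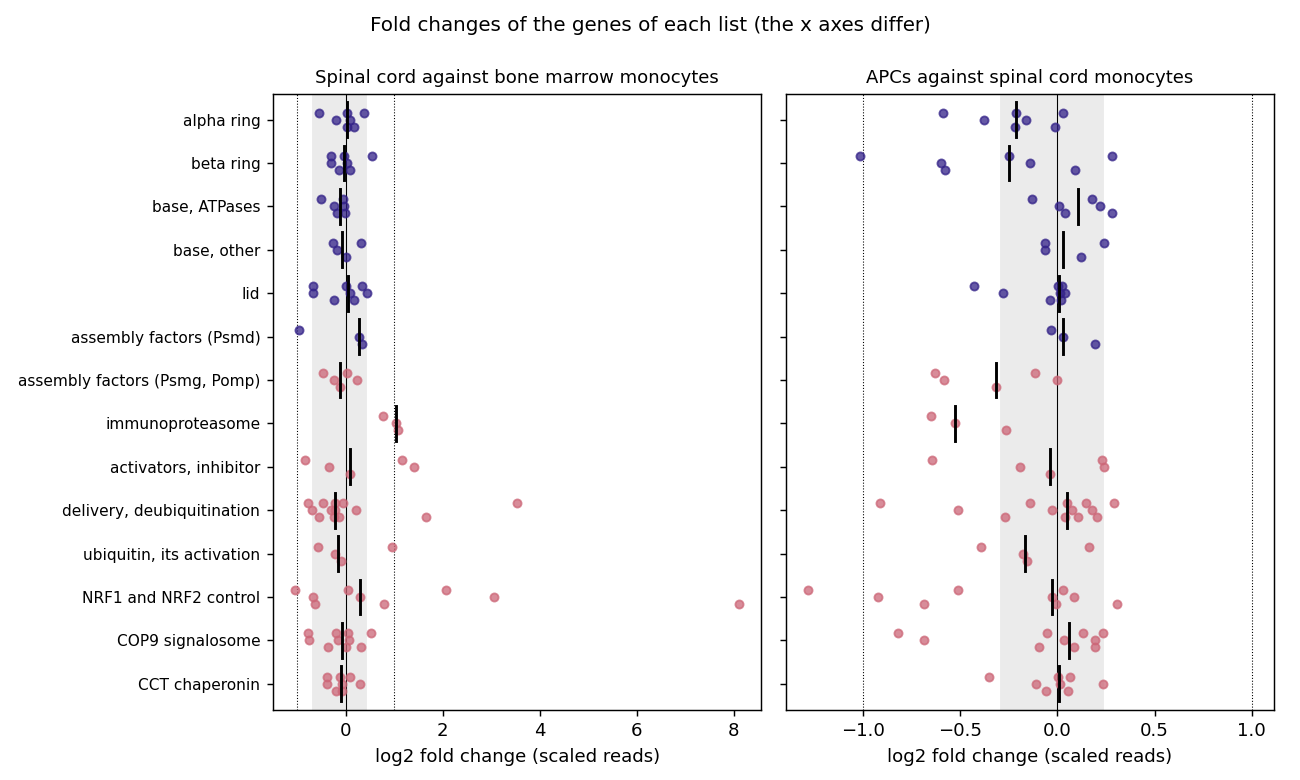
Each point is the log2 fold change of 1 active gene on scaled reads, bars are list medians, dotted lines mark 2-fold and the grey band runs between the quartiles of all active genes; the members are dark and the other lists light, and the x axes of the panels differ. The members stay within -0.96 and 0.55 on the left, where Maff reaches 8.11 and Zfand2a 3.54.

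Markers of other cells differed between the libraries, and their part in the values above was not tested. The 7 monocyte markers summed to 10761, 8955 and 2814 TPM, with Ly6c2 the most abundant in each library. Ly6c2 (5205, 3602 and 1067 TPM), Ccr2 (1629, 299 and 139 TPM) and Ptprc (422, 265 and 194 TPM) were lower at each step. Cd44, Fcgr1, Plac8 (2564, 3506 and 500 TPM) and Itgam (485, 533 and 510 TPM) were instead highest in spinal cord monocytes. Ly6C was also a criterion of the sort, low or negative in APCs. The 6 neutrophil markers summed to 7002, 1065 and 1148 TPM, led by S100a8, which monocytes also express. The granule genes Ngp (186, 24.3 and 157 TPM), Ltf (27.6, 9.76 and 34.1 TPM) and Camp (70.8, 6.37 and 16.8 TPM) were lowest in spinal cord monocytes, while S100a8 (4471, 678 and 498 TPM) was lowest in APCs. Markers of dividing cells summed to 543, 37.99 and 43.1 TPM, and all 6 were over 3 TPM in bone marrow monocytes, with Top2a at 190 TPM. The 5 microglia markers summed to 12.8, 85.0 and 223 TPM, led by P2ry12, and Sall1 was at 0 in bone marrow monocytes. T cell markers summed to 0.417, 48.3 and 72.9 TPM, with Cd3g, Cd4 and Trac at 0 in bone marrow monocytes. Markers of neurons summed to at most 1.014 TPM in any library. Near-identical copies of the members had few reads in the monocyte libraries: 11 of the 35 had at least 1 copy among 19 other annotated genes at 95% identity, and in the monocyte libraries these held 0.0124% and 0.0123% as many reads as the 35 members. The APC values list 1 of the 19, so the reads of copies there are not known.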

How the data were processed

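RNA from sorted cells was sequenced as 1 pooled library for each of 3 populations. Per the labels, expression was estimated with Salmon 0.14.1 (mm10). The authors deposited TPM, which corrects for effective length and depth, and estimated counts, which are uncorrected. The monocyte values list 54432 genes and those of APCs 22242, which means that the transcript sets differ. TPM was rescaled to 1 sum over the 22238 common genes, and counts were rounded.

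Each fold change is the median of a gamma posterior of reads plus 1, after the definition of GFold, scaled by median-of-ratios factors computed for each pair of libraries. Calls need percentile 1 or 99 beyond 2-fold and TPM over 3. Identifiers and positions are given for the members with the 3 highest and 3 lowest fold changes in each comparison, and for Psmb5, Psmb6 and Psmb7. Other lists are named by called, most abundant and extreme genes. Members and lists were chosen with earlier results of these data known. Paaf1 was not analysed, and 4 genes of these lists are not reported here.

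Symbols and coordinates came from GENCODE M21 (GRCm38), which matched 99.0% of common genes by identifier and version. Python 3.11.15, scipy 1.17.1, BLAST 2.17.0 and, for TMM factors, edgeR 4.0.16 were used. The alternatives cover scaling, transcript length, prior, interval, assumed spread, thresholds, gene sets and TPM scale.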

Additional observations from a re-analysis of the deposited data

How the results depend on the processing

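No member was called at 2-fold in either comparison with total reads, TMM factors, factors from active genes (added after the data were examined), reads divided by effective length, 0.5 reads added, stricter percentiles, an assumed coefficient of variation of 0.2 or 0.4, TPM over 4, no TPM threshold, and the other gene sets and added copies. A 1.5-fold interval gave 1 member in each comparison, and the point estimate alone gave 1 (Psmb4) in APCs. Over all active genes, the assumed spreads of 0.2 and 0.4 left 905 higher and 460 lower or 627 and 228 in the first comparison (spinal cord against bone marrow monocytes), and 87 and 35 or 43 and 14 in APCs; dividing by length gave 232 and 324 in APCs, and no TPM threshold 2591 and 1211, and 389 and 288. A point estimate gave 331 and 293 in APCs, and 1.5-fold 423 and 544.

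The median of the members in the first comparison moved from -0.02 to -0.18 with total reads, 0.16 with factors from active genes and -0.30 on log2(TPM + 1) or log2(TPM + 0.1), so its sign depends on the scaling. The median in APCs moved by less than the median counting interval of a member. The core particle median minus that of the regulatory particle in APCs stayed between -0.23 and -0.18 (alternatives added after the data were examined). Summed TPM in the 3 libraries was 4735, 3864 and 4068 as deposited, 6989, 5623 and 5482 without genes of ribosomal proteins, of the mitochondrial genome and with Gm numbers, 5499, 4467 and 4003 without the 3 chaperones, and 5810, 4683 and 4194 with Sem1, and it was highest in the bone marrow and lowest in APCs in each except as deposited, where APCs exceeded spinal cord monocytes. Of 490 member fold changes recomputed, 71 had another sign. Point values passed 2-fold for Psmd5 in the first comparison with total reads (-1.12) and on both TPM scales, and for Psmb4 in APCs with TMM factors (-1.02), effective length (-1.05), 0.5 reads added, added copies and both TPM scales. The 98% interval did not lie beyond 2-fold in any of these settings on reads, and the 4 values on TPM are point values without an interval. No paired analysis was possible because each population has 1 library, which also leaves no replicate to leave out.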
